A study of Rattus norvegicus with 46 samples.

Results

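The genes described here make, fold and export collagen in the endoplasmic reticulum (ER), or respond when that compartment is loaded. They are 44 of the 23747 gene symbols in the authors' deposited gene tables, listed by name in 3 roles: 14 procollagen modifiers and chaperones, 10 genes of the translocon and the COPII coat, and 20 ER chaperones and unfolded protein response genes. Rows for 41 of the 44 were found in those tables, and 38 were matched to transcripts of the count table and tested: 13 procollagen modifiers, 6 translocon and COPII genes, and 19 ER chaperone and stress genes. Sec31a, Ssr1 and Dnajc3 are given only from the authors' deposited tables. Crtap, Mia3 and Sar1a were not analysed here.

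RNA came from the rat subacromial bursa, a thin sac that lies over the rotator cuff, and from the supraspinatus tendon beneath it. The operated rats had the supraspinatus tendon cut, and the bursa was either taken out or left in place. There were 6 injured bursae from day 14, 6 injured bursae from day 3 and 5 control bursae. Of the tendons, 6 were from day 14 with the bursa removed, 6 from day 14 with the bursa intact, 6 from day 3 with the bursa removed, 6 from day 3 with the bursa intact, and 5 were controls. Controls were rats without an operation, so no group had the operation without the tendon injury. Supraspinatus tendons of both sides were dissected, and the labels give no rat for any library. The p-values below therefore measure the spread between these libraries, some of which may share an animal. The labels state no strain, sex or age.

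Fibrillar collagen chains enter the ER through the Sec61 translocon, where prolyl hydroxylases modify them before they fold into a triple helix, and chaperones such as Serpinh1 hold that helix until it leaves in COPII carriers. When unfolded protein accumulates, the sensors ATF6, IRE1 and PERK raise ER chaperones, splice the Xbp1 message and induce Atf4 and Ddit3. Tendon cells and fibroblasts are known for secreting large amounts of fibrillar collagen, above all type I in tendon.

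Promoters are shown first because the 3 roles differ in the motifs they hold. RefSeq promoters of the rat build GRCr8, running from 250 bases before to 50 bases after each annotated start, were found for 36 of the 44 genes. Hyou1 had 2 overlapping windows, so the 17 promoters of ER chaperone and stress genes below come from 16 genes. The ER stress response element (ERSE, the letters CCAAT and CCACG with 9 bases of any kind between them, both strands), known as a site of ATF6 and XBP1 with NF-Y, lay in 7 of 17 promoters of the ER chaperone and stress genes, against 0 of 13 procollagen modifier promoters, 0 of 7 translocon and COPII promoters and 0.0657% of all 33469 promoters. The 7 were those of Calr, Canx, Creld2, Dnajc3, Hsp90b1, Hspa5 and Xbp1. Its variant ERSE-II (ATTGG, any base, CCACG) lay in 2 of the 17, those of Dnajb11 and Hyou1, against 0.0508% of all promoters. Below, capitals mark ERSE in Hspa5 (chr3:38452766-38453065, plus strand), in Hsp90b1 (chr7:23012244-23012543, minus strand, a copy on each strand) and in Xbp1 (chr14:84604373-84604672, plus strand). In Serpinh1 (chr1:163062927-163063226, minus strand), capitals mark the only heat shock element found among these promoters (HSE, TTC, GAA and TTC with 2 bases of any kind between neighbours, in 0.798% of all promoters). The Ddit3 window (chr7:65001445-65001744, plus strand) held none of the motifs searched and is shown because that gene moved against the rest.
Hspa5: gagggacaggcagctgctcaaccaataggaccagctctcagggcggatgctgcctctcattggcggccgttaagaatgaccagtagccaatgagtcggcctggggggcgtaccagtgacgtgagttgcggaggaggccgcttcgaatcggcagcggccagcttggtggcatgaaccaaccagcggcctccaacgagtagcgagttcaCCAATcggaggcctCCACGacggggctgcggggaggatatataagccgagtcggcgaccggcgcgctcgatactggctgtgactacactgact
Hsp90b1: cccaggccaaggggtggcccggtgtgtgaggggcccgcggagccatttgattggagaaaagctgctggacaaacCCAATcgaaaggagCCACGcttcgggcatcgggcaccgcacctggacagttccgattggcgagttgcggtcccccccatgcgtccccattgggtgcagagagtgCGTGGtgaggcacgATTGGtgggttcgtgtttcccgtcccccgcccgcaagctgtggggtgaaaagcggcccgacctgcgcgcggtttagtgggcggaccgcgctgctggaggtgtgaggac
Xbp1: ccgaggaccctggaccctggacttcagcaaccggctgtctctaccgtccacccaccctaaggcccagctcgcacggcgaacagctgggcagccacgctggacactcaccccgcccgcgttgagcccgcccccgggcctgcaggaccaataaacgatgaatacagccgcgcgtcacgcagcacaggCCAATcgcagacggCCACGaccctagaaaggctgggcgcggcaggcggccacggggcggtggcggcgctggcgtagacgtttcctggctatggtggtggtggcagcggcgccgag
Serpinh1: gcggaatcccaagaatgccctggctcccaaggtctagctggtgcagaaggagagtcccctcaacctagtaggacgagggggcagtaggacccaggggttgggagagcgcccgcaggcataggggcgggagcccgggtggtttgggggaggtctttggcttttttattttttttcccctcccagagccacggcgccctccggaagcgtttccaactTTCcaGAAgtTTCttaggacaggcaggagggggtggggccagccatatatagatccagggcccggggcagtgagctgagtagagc
Ddit3: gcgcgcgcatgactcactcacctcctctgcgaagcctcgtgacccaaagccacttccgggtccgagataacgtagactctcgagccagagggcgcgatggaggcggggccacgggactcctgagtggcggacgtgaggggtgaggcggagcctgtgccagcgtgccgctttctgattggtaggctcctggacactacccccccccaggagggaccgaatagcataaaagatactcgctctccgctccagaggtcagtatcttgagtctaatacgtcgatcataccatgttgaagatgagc
The remaining ERSE copies were read on the motif's own strand as follows.
Calr: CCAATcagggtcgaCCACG
Canx: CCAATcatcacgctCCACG
Creld2: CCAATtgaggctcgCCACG
Dnajc3: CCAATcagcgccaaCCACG
The unfolded protein response element (UPRE, TGACGTGG), known as an XBP1 site, lay in the promoters of Kdelr3, Sec23a and Hyou1, against 0.595% of all promoters. In Hyou1 it overlapped an ERSE-II. The C/EBP-ATF response element (CARE, TGATGCAA), known as a site of ATF4, was found in none of these promoters and in 0.795% of all. A match here is a description of letters, not of a bound factor.

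The 46 libraries held 12.4 to 69.9 M counts, and mitochondrial transcripts made up 7.22 to 53.5% of them. Levels below are CPM, counts scaled to a common library total, after TMM, which are not adjusted for transcript length, so they are compared between groups and not between genes. Tendon cell markers had a mean log2(CPM + 1) of 1.44 to 6.07 in control bursae and 7.52 to 8.84 in control tendons, over the 8 of 9 with a level. Skeletal muscle markers (5 of 11 with a level) stood at 7.74 to 11.07 on the same scale in injured tendons. In control tendons they stood at 11.84 to 12.56, so these did not overlap. A marker without a level was not matched to a transcript or did not pass the filter on low counts, and may still be expressed. Of the 5 muscle markers, 4 were above 0 in every library, and Myl2 was at 0 in 1. Control bursae 1 and 2 stood apart from the other control bursae, with mitochondrial shares of 48.9 and 53.5%, against 13.3 to 17% in the others. Tissue was sequenced whole, so a higher level can mean more cells of a type or more RNA per cell, and these cannot be told apart.

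Most of this machinery was higher in injured tendon by day 3. With the bursa intact, 35 of the 38 genes were higher and 3 lower than in control tendon, with a median log2 fold change of 1.22 against -0.04 over all 16459 features (edgeR quasi-likelihood test, Benjamini-Hochberg adjusted p under 0.05, which holds for every call below unless another test is named). Of all features, 65.7% were called, 31.2% higher and 34.5% lower. All 13 procollagen modifiers were higher (median 1.47), as were all 6 translocon and COPII genes (median 1.46). Of the 19 ER chaperone and stress genes, 16 were higher and 3 lower (median 1.09), and the 3 lower were Ddit3, Atf4 and Dnajb9. Scaling by library totals without TMM put the median of all features at 0.49 and that of the 38 genes at 1.77, and turned the sign of Dnajb9 (0.27). Mitochondrial transcripts made up 9.43 to 15.6% of counts in day 3 tendon and 7.22 to 12.1% in day 14 tendon with the bursa intact, and 11.7 to 25.4% and 7.73 to 15.7% at those days with it removed, against 24.7 to 36.5% in control tendon. Only day 3 tendon with the bursa removed overlapped the controls in this share, and its part in these results was not tested. The map of fold changes by role shows every gene in each injured group.

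**Figure D1:**
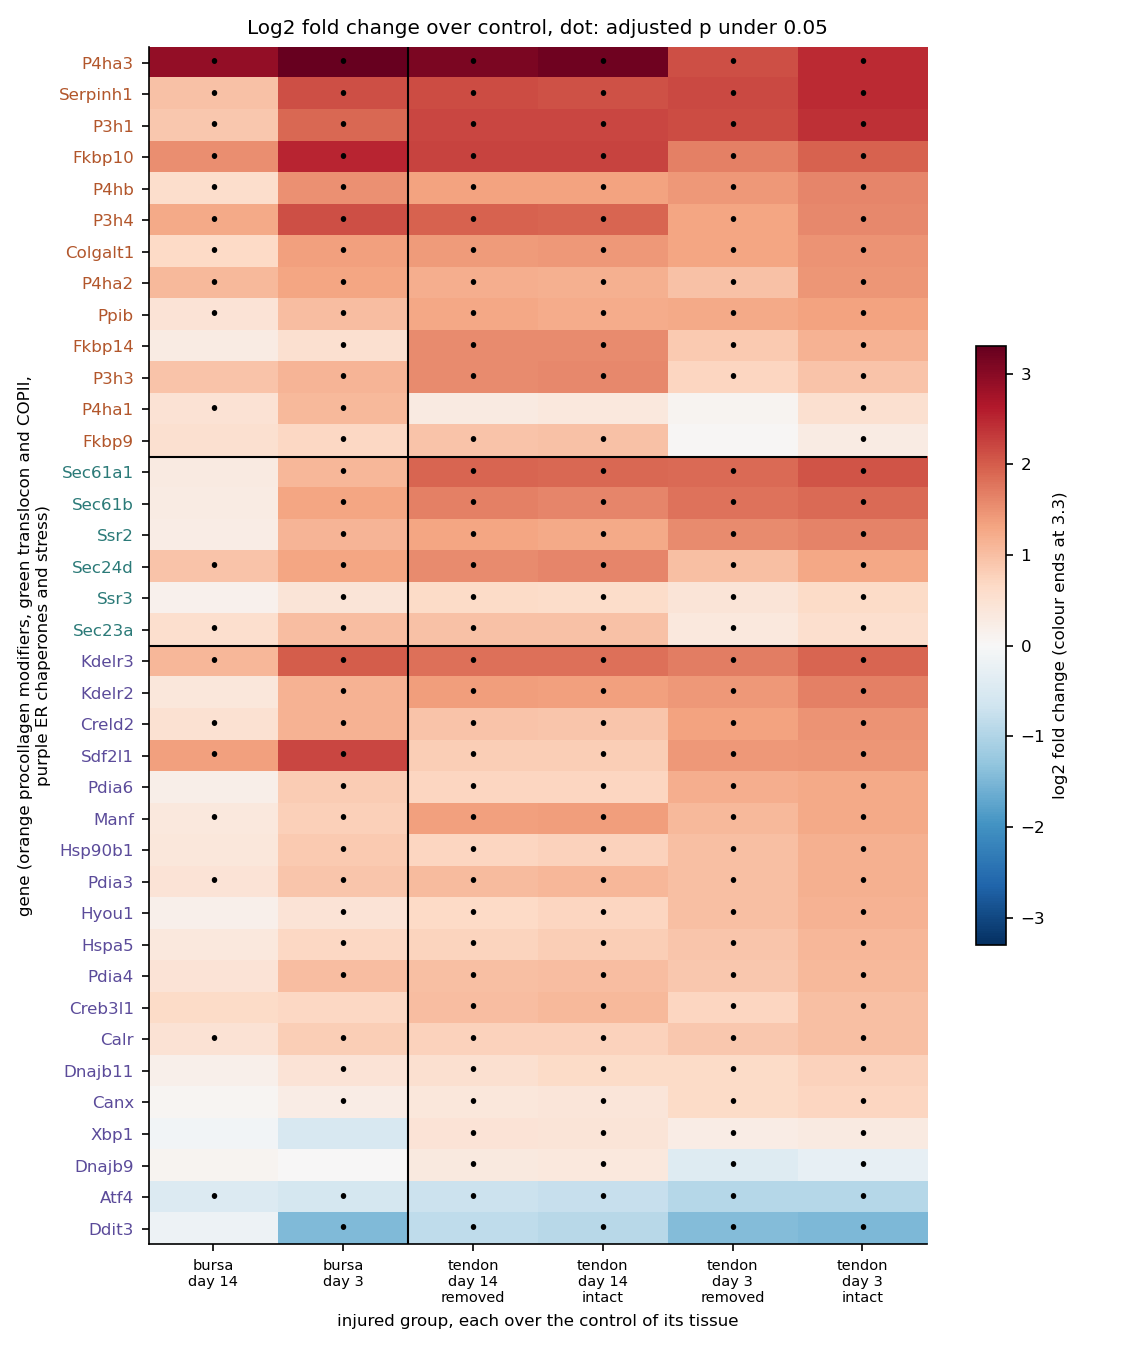
Log2 fold change of each gene (rows, coloured by role) in each injured group over the control of its tissue (columns); colour gives the log2 fold change and a dot marks an adjusted p under 0.05. Procollagen modifiers and translocon genes are red or near white in all tendon columns, day 14 bursa is paler than day 3 bursa, and Atf4 and Ddit3 are blue in every column.

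Among the procollagen modifiers, the prolyl hydroxylases ranged from small to large changes. P4ha3, a catalytic subunit of collagen prolyl 4-hydroxylase, had 82.1, 107 and 129 CPM (lowest, median, highest of 6) in day 3 tendon with the bursa intact, against 27.1, 25.8, 14.8, 11.5 and 13.9 CPM in the control tendons. The groups did not overlap, and the log2 fold change was 2.45 ± 0.21 (SE, adjusted p = 1.4e-10). Its relative P4ha2 rose by 1.45 ± 0.16 on the log2 scale. P4ha1, the main catalytic subunit in many tissues, had 200, 227 and 319 CPM in day 3 tendon with the bursa intact, against 142, 163, 139, 136 and 239 CPM in control tendon. Here 1 control library lay inside the injured range, and the log2 fold change was 0.53 ± 0.17 (adjusted p = 0.0074). P4hb, the shared beta subunit that also acts as a disulfide isomerase, rose by 1.62 ± 0.10, and P3h1, the prolyl 3-hydroxylase that works with Crtap and Ppib, rose by 2.40 ± 0.14. Ppib, a prolyl isomerase (cyclophilin B), rose by 1.33 ± 0.08. P3h3 and P3h4, which in the mouse form a complex with a lysyl hydroxylase, rose by 0.93 ± 0.10 and 1.58 ± 0.15.

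Collagen chaperones and a glycosyltransferase also rose. Serpinh1, the chaperone that binds folded procollagen, had 2570, 2730 and 3060 CPM in day 3 tendon with the bursa intact, against 499, 455, 507, 402 and 591 CPM in control tendon. Every injured library was above every control library, with a log2 fold change of 2.45 ± 0.14 (adjusted p = 2.5e-14). Fkbp10, an ER prolyl isomerase that acts on procollagen, had 371, 384 and 421 CPM, against 80.0, 136, 92.7, 77.2 and 102 CPM in control tendon, a log2 fold change of 1.95 ± 0.15. These groups were also apart. Fkbp14, a smaller member of the same family, had 42.8, 50.6 and 59.1 CPM, against 18.0, 23.5, 22.1, 21.0 and 27.3 CPM in control tendon (1.14 ± 0.14), and Colgalt1, which adds galactose to hydroxylysine, rose by 1.47 ± 0.09. Fkbp9 had the smallest change of the group. It had 276, 298 and 328 CPM in day 3 tendon with the bursa intact, against 162, 261, 262, 243 and 278 CPM in control tendon, so the groups overlapped slightly, and its log2 fold change of 0.26 ± 0.11 (adjusted p = 0.039) was 0.14 (adjusted p = 0.17) without control tendon 1.

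The translocon and coat genes all rose, the channel subunits by the most. Sec61a1, the channel subunit of the translocon, had 351, 372 and 413 CPM in day 3 tendon with the bursa intact, against 81.4, 92.3, 82.7, 75.7 and 99.7 CPM in control tendon. The gap between the groups was far wider than the spread within either, at a log2 fold change of 2.08 ± 0.12 (adjusted p = 8.6e-14). Sec61b, its small partner subunit, had 86.8, 90.8 and 104 CPM, against 20.3, 21.4, 24.8, 21.0 and 34.6 CPM in control tendon, a log2 fold change of 1.87 ± 0.13. Ssr2 and Ssr3 are subunits of the translocon-associated protein complex. Ssr2 rose by 1.64 ± 0.13. Ssr3 had 206, 252 and 287 CPM, against 151, 167, 131, 142 and 189 CPM in control tendon, without overlap but close (0.62 ± 0.10). In the authors' deposited table, Ssr1 of the same complex was higher by 1.17 ± 0.11 (SE, adjusted p = 2.4e-27). Sec24d, a COPII cargo adaptor needed for procollagen export in zebrafish cartilage, had 134, 181 and 195 CPM, against 62.1, 70.4, 62.1, 58.5 and 90.7 CPM in control tendon, and rose by 1.28 ± 0.15. Sec23a, its partner in the inner coat, had 95.9, 125 and 129 CPM, against 72.4, 70.8, 70.3, 78.6 and 106 CPM in control tendon. These groups overlapped through control tendon 5, and the log2 fold change was 0.55 ± 0.11 (adjusted p = 0.00011). In the authors' deposited table, Sec31a of the outer coat was higher by 0.86 ± 0.09 (adjusted p = 1.4e-22).

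Among the ER chaperone and stress genes, the retrieval receptors rose most. Kdelr3, a receptor that returns ER residents from the Golgi, had 153, 163 and 169 CPM in day 3 tendon with the bursa intact, against 30.1, 40.5, 37.3, 36.4 and 62.1 CPM in control tendon, with no overlap and a log2 fold change of 1.92 ± 0.15. Its relative Kdelr2 had 240, 267 and 280 CPM, against 80.0, 82.6, 74.0, 71.8 and 92.6 CPM in control tendon, and rose by 1.66 ± 0.11. Hspa5 (BiP), the main ER Hsp70 and a sensor partner in the unfolded protein response, had 658, 756 and 907 CPM, against 338, 272, 329, 316 and 483 CPM in control tendon. Those groups did not overlap either, and the change was smaller, at 1.09 ± 0.14 (adjusted p = 1.4e-07). Creb3l1, an ER-anchored transcription factor that acts on collagen genes in mouse osteoblasts, had 94.4, 104 and 108 CPM, against 35.8, 35.1, 42.1, 48.4 and 85.3 CPM in control tendon (1.00 ± 0.21). Sdf2l1, a cofactor of BiP, rose by 1.46 ± 0.15 with 25.1, 30.0 and 36.2 CPM, against 13.7, 10.6, 7.45, 7.07 and 14.2 CPM in control tendon. The lectin chaperones Calr (0.98 ± 0.10) and Canx (0.72 ± 0.09) rose, as did the disulfide isomerases Pdia3, Pdia4 and Pdia6 (1.17, 1.08 and 1.26). Hsp90b1, the ER Hsp90, rose by 1.18 ± 0.13, and Hyou1, an exchange factor for BiP, by 1.15 ± 0.11. Manf and Creld2, small ER proteins induced by stress, rose by 1.26 ± 0.11 and 1.47 ± 0.11, and Dnajb11, a BiP cochaperone, by 0.77 ± 0.09. In the authors' deposited table, the cochaperone Dnajc3 was higher by 0.92 ± 0.16 (adjusted p = 1.2e-08).

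The 3 genes that fell were Ddit3, Atf4 and Dnajb9. Ddit3, the stress-induced factor CHOP, had 7.39, 8.56 and 9.57 CPM in day 3 tendon with the bursa intact, against 25.6, 21.6, 21.1, 27.0 and 21.2 CPM in control tendon. Every injured library was below every control library, and the log2 fold change was -1.48 ± 0.12 (adjusted p = 3.7e-11). Atf4 acts upstream of Ddit3, and its message is counted here, not its protein. That message had 200, 207 and 223 CPM, against 424, 368, 279, 411 and 435 CPM in control tendon, and fell by 0.94 on the log2 scale (SE 0.08). Xbp1, whose total message is counted here without regard to splicing, rose by 0.29 ± 0.08 (adjusted p = 0.003). Dnajb9, an IRE1 target in other cells, had 36.0 to 45.9 CPM, against 43.3, 44.6, 44.6, 48.5 and 54.1 CPM in control tendon (-0.28 ± 0.08). Muscle marker levels, which also differed between these groups without overlap, are set beside these results further on.

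**Figure D2:**
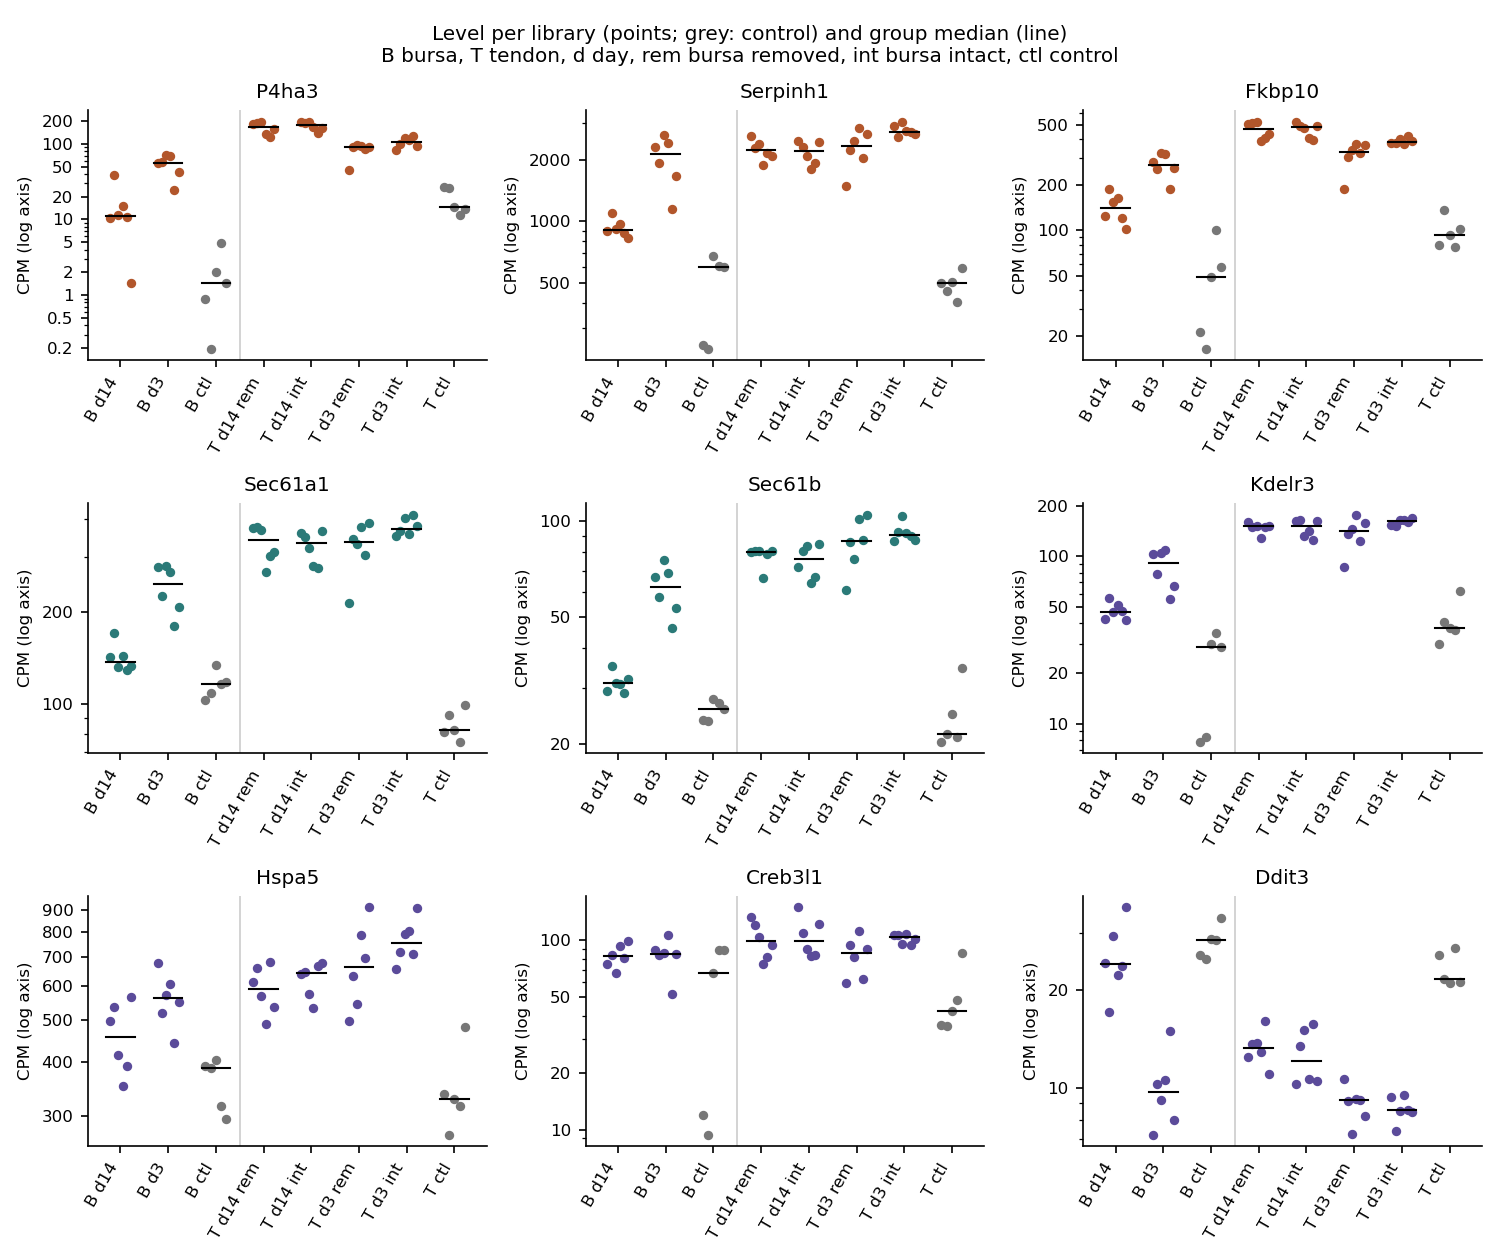
CPM (log axis) of 9 genes in every library (points), with the median of each group as a line, for bursa (left of the grey line) and tendon; grey points are controls. P4ha3, Serpinh1, Fkbp10, Sec61a1, Sec61b and Kdelr3 lie above control in every injured tendon library, Ddit3 lies below it, and control bursae 1 and 2 are the low points of Creb3l1 and Kdelr3.

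ER chaperone and stress genes with an ERSE or ERSE-II in the promoter window were higher in injured tendon wherever tested. Of 9 such genes, 8 were tested, and all 8 rose in day 3 tendon with the bursa intact (log2 fold changes of 0.29 to 1.47, median 1.04). Of 7 with a promoter and neither motif, 4 rose and 3 fell (-1.48 to 1.92, median 1.00). At day 14 with the bursa intact the counts were 8 higher and 0 lower (median 0.74) with a motif, against 5 higher and 2 lower (median 0.82) without. In day 3 bursa they were 7 higher and 0 lower of 8 (median 0.57), against 3 higher and 2 lower of 7 (median 0.68). Of all features, 31.2%, 33.2% and 22.1% were higher in these 3 comparisons, and 34.5%, 33.1% and 24.3% lower. Kdelr2, Manf, Pdia3 and Pdia6, for which no promoter was found, are in neither set and were higher in each of these comparisons. The roles without these motifs rose too. Procollagen modifiers, with either motif in 0 of 13 promoters, were 13 of 13 higher in day 3 tendon with the bursa intact (median 1.47). Translocon and COPII genes, with either in 0 of 7 promoters, were 6 of 6 higher there (median 1.46). With the muscle covariate described further on, Hspa5 and Hsp90b1 did not pass there, and Creld2 did. A part of the motifs in these changes was not tested. The tested gene with a motif that did not pass in day 3 bursa was Xbp1, at -0.52 (adjusted p = 0.092), and it was lower without control bursae 1 and 2, at -0.89 (adjusted p = 0.0003).

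The other injured tendon groups were set against the same control tendons. At day 3 with the bursa removed, 33 of 38 genes were higher and 3 lower (median 0.98; 63.1% of all features called, 29.8% higher and 33.3% lower). At day 14, 35 were higher and 2 lower with the bursa removed (median 1.03; 65.1% of features called, 32.6% higher and 32.5% lower), and likewise 35 and 2 with the bursa intact (median 1.09; 66.2% called, 33.2% higher and 33.1% lower). P4ha1 and Fkbp9, with log2 fold changes of 0.08 ± 0.17 and 0.04 ± 0.11, were the genes that did not pass at day 3 with the bursa removed. P4ha1 did not pass at day 14 either (0.30 ± 0.17 with the bursa removed, 0.35 ± 0.17 with it intact). Dnajb9, lower than control at day 3, was higher at day 14 with the bursa intact (0.35 ± 0.08, adjusted p = 0.00064).

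Between day 14 and day 3 tendon, these genes moved in both directions, and with the bursa intact the shares called were near those of all features. With the bursa intact, 9 of 38 genes were higher at day 14 than at day 3 and 10 lower (median -0.10; 42.8% of all features called, 22.3% higher and 20.5% lower), and with the bursa removed 13 were higher and 5 lower (median 0.12; 45.1% called, 23.3% higher and 21.8% lower). Library totals without TMM gave 5 higher and 18 lower with the bursa intact and 8 higher and 12 lower with it removed. The muscle covariate described further on gave 23 higher and 4 lower with it removed (median 0.23). The shares of all features called in these alternative fits are not given here. Markers of other cells also differed with the bursa intact: 7 of 8 tendon cell and 6 of 9 fibroblast markers were higher at day 14 than at day 3, and 7 of 8 macrophage and 4 of 4 dividing cell markers were lower. With it removed, 7 of 8 and 7 of 9 were higher, and 5 of 8 and 4 of 4 lower. Their part in these differences was not tested. Among procollagen modifiers, 5 were higher and 2 lower with the bursa intact, and 6 higher and 0 lower with it removed. P4ha3 had 140, 179 and 195 CPM at day 14 with the bursa intact, against 82.1, 107 and 129 CPM at day 3, with no overlap (0.75 ± 0.19, adjusted p = 0.0017). Fkbp9 had 455, 470 and 516 CPM at day 14 with the bursa intact, against 276, 298 and 328 CPM at day 3, also without overlap (0.70 ± 0.10). P3h3 was higher by 0.66 ± 0.09 and Sec23a by 0.42 ± 0.11. Serpinh1 ran the other way, with 1800, 2190 and 2450 CPM at day 14 and 2570, 2730 and 3060 CPM at day 3 with the bursa intact (-0.34 ± 0.12, adjusted p = 0.026). This call was lost without day 14 intact tendon 4 (-0.29, adjusted p = 0.069) or 5 (-0.30, adjusted p = 0.06).

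Of the 19 ER chaperone and stress genes, 2 were higher and 7 lower at day 14 than at day 3 with the bursa intact. Sdf2l1 had 15.2, 19.0 and 21.7 CPM at day 14, against 25.1, 30.0 and 36.2 CPM at day 3, without overlap (-0.64 ± 0.13). Creld2 was lower by 0.55 (SE 0.09), Pdia6 by 0.53 (SE 0.10) and Hyou1 by 0.43 (SE 0.11). The 2 higher genes were Dnajb9 (0.63 ± 0.08) and Ddit3, which had 10.3, 12.1 and 15.8 CPM at day 14, against 7.39, 8.56 and 9.57 CPM at day 3 (0.57 ± 0.12, adjusted p = 0.00022). In the authors' deposited table, Ssr1 was lower at day 14 than at day 3 with the bursa intact by 0.59 (adjusted p = 1.2e-07) and Sec31a was higher by 0.27 ± 0.09 (adjusted p = 0.0077). Collagen genes themselves, the cargo of this machinery, went up over the same interval, with 6 of 7 tested higher at day 14 with the bursa intact (median 1.07) and 7 of 7 with it removed (median 1.40).

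In the bursa, most of the genes were higher at day 3 and fewer at day 14. At day 3, 33 of 38 genes were higher than in control bursa and 2 lower, with a median log2 fold change of 1.03 against -0.06 over all 16398 features (46.3% of features called, 22.1% higher and 24.3% lower). All 13 procollagen modifiers (median 1.36) and all 6 translocon and COPII genes (median 1.10) were higher. Of the ER chaperone and stress genes, 14 were higher and 2, Ddit3 and Atf4, lower (median 0.78). P4ha3 had 24.9, 56.4 and 72.1 CPM in day 3 bursa, against 0.879, 0.195, 2.00, 4.90 and 1.44 CPM in control bursa. No library overlapped, and the log2 fold change of 4.79 ± 0.74 was the largest of these genes in any comparison with a control. Its control values were near the floor, at 4.90 CPM or less, so the size of this ratio is imprecise. Serpinh1 had 1150, 2120 and 2620 CPM, against 248, 239, 675, 605 and 596 CPM in control bursa (2.13 ± 0.29, adjusted p = 2.6e-05). Sec61b had 46.1, 62.3 and 75.5 CPM, against 23.8, 23.6, 27.7, 26.9 and 25.7 CPM in control bursa (1.30 ± 0.11). Ddit3 had 7.22, 9.75 and 15 CPM, against 25.6, 25.0, 28.7, 28.5 and 33.3 CPM in control bursa, again without overlap (-1.45 ± 0.19, adjusted p = 2e-05).

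Control bursae 1 and 2 bear on these bursa results. Creb3l1 had 52.2, 85.2 and 107 CPM in day 3 bursa, against 12.0 and 9.44 CPM in control bursae 1 and 2 and 67.5, 89.0 and 89.2 CPM in the others, and it did not pass the test (0.68 ± 0.45, adjusted p = 0.23). Kdelr3 had 55.8, 91.3 and 109 CPM, against 7.82, 8.37, 30.1, 34.7 and 28.6 CPM in control bursa (2.01 ± 0.35). Without control bursae 1 and 2 its log2 fold change was 1.52, and 31 of 38 genes were higher and 3 lower, with a median of 0.83. The share of all features called without those libraries is not given here. Xbp1 then joined the lower genes (-0.89, adjusted p = 0.0003), against -0.52 ± 0.24 (adjusted p = 0.092) with all libraries. Fkbp9 and Fkbp14 no longer passed without those libraries (0.28 and 0.34). The part of their mitochondrial share in this was not tested.

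At day 14, 18 of 38 genes were higher than in control bursa and 1, Atf4, was lower (median 0.45; 16.5% of all features called, 9.29% higher and 7.21% lower). This count depends on control bursae 1 and 2: without both, 9 were higher and 1 lower. Library totals without TMM left 1 higher and 0 lower, with a median of 0.56 against 0.14 over all features. The shares of all features called in these alternative fits are not given here, so the drops cannot be read as particular to these genes. By role, 10 of 13 procollagen modifiers, 2 of 6 translocon and COPII genes and 6 of 19 ER chaperone and stress genes were higher. Fkbp10 had 102, 139 and 189 CPM in day 14 bursa, against 21.2, 16.4, 49.1, 101 and 56.7 CPM in control bursa, with the highest control just below the lowest injured library (1.53 ± 0.36, adjusted p = 0.01), and was 1.04 (adjusted p = 0.014) without control bursae 1 and 2. Serpinh1 had 831, 907 and 1100 CPM, all above the control bursae (0.97 ± 0.28, adjusted p = 0.025), and was 0.57 (adjusted p = 0.072) without them. Sec61a1 had 129, 138 and 171 CPM, against 103, 109, 134, 116 and 118 CPM in control bursa, and did not pass (0.29 ± 0.12, adjusted p = 0.11). Ddit3 had 17.1, 24.0 and 35.9 CPM, and its range held all 5 control bursae (-0.16 ± 0.19, adjusted p = 0.59).

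Set against day 3, day 14 bursa had 1 gene higher, Ddit3, and 25 lower (median -0.48 against 0.01 over all features; 21.8% of features called, 9.54% higher and 12.3% lower). The lower genes were 9 of 13 procollagen modifiers, 5 of 6 translocon and COPII genes and 11 of 19 ER chaperone and stress genes. Sec61b had 28.8, 31.0 and 35.0 CPM at day 14, against 46.1, 62.3 and 75.5 CPM at day 3, without overlap (-1.02 ± 0.10, adjusted p = 7.6e-06). Serpinh1, with 831, 907 and 1100 CPM at day 14 against 1150, 2120 and 2620 CPM at day 3, did not overlap either (-1.15 ± 0.26, adjusted p = 0.005). Ddit3 was higher by 1.30 ± 0.18 (adjusted p = 0.00014), and no day 14 library was below a day 3 library. In the authors' deposited table, Ssr1 was lower at day 14 than at day 3 by 0.67 (adjusted p = 1.8e-08). The 7 collagen genes tested had a median of -0.32 in this comparison (-1.27 to 0.10). Of the cell markers, 5 of 7 adipocyte markers were higher at day 14, and 4 of 4 dividing cell and 2 of 8 macrophage markers were lower. None of the 9 fibroblast markers was called. The part of these cells in the lower levels was not tested. Library totals without TMM left only 1 gene higher and 2 lower in this comparison, with a median of -0.47 against 0.04 over all features. The share of all features called with that scaling is not given here, so the drop cannot be read as particular to these genes. Leaving out single libraries gave 15 to 25 calls, with 15 without day 14 bursa 5 or day 3 bursa 1, and 16 without day 14 bursa 3 or 4 or day 3 bursa 3 or 4.

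The response to injury was smaller in bursa than in tendon for many of these genes, which was tested as a difference of differences in 1 fit of all 46 libraries. At day 3, the bursa response was below that of tendon with the bursa intact in 12 of 38 genes and above it in 1 (median difference -0.32; 24.2% of all features called, 9.76% higher and 14.4% lower). At day 14 it was below in 20 and above in 2 (median -0.56; 34.7% called, 15.4% higher and 19.3% lower). Sec61a1 had the largest difference at day 14, -1.62 ± 0.17 (adjusted p = 3.5e-09), and -1.08 ± 0.17 at day 3. P3h1 and Fkbp14 both differed by -1.32 at day 14, and Serpinh1 by -1.16 ± 0.28. The gene with the larger bursa response at day 3 was P4ha3, by 2.24 ± 0.61 (adjusted p = 0.0059), a difference that rests on low levels in control bursa. Those with the higher bursa value at day 14 were Ddit3 (0.73 ± 0.21) and Atf4 (0.28 ± 0.11), both of which had fallen in tendon. Without control bursae 1 and 2, 17 genes were below and 3 above at day 3, and 28 below and 2 above at day 14. Mean muscle marker levels were 12.2 in control tendon, and 8.51 at day 3 and 9.12 at day 14 in tendon with the bursa intact. In bursa they were 7.54 in controls (5.31 to 10.55), 6.02 at day 3 (0.67 to 8.79) and 8.34 at day 14 (6.85 to 9.63), and these ranges overlapped. Day 3 bursa 6, at 0.67, lowers the day 3 mean, and control bursa 1, at 10.55, raises the control mean. The muscle covariate described further on was fitted to tendon libraries only, so the part of this unequal change in the differences was not tested.

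**Figure D3:**
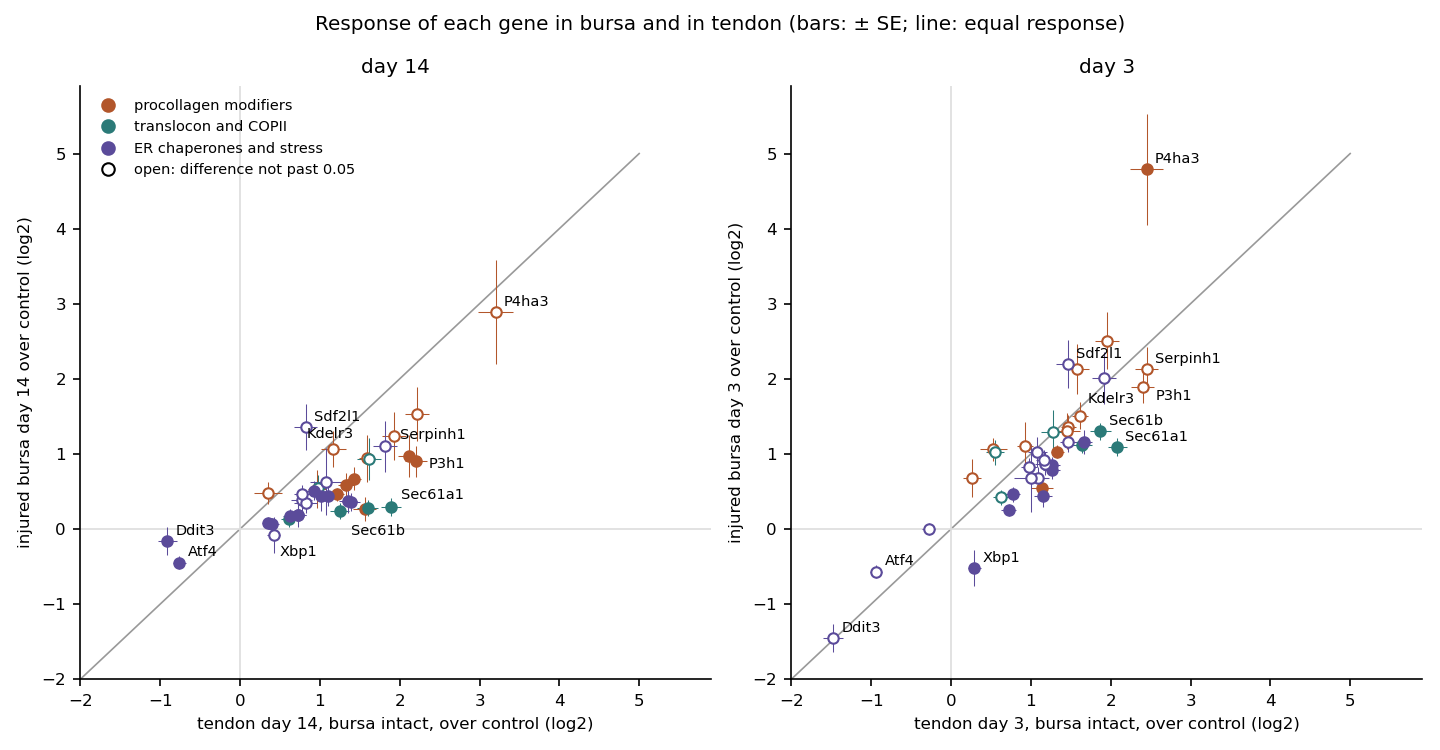
Log2 fold change over control in bursa (vertical axis) against tendon with the bursa intact (horizontal axis) for each gene at day 14 (left) and day 3 (right), with SE bars; the line marks equal responses and filled points differ at an adjusted p under 0.05. Most points at day 14 lie below the line, with Sec61a1 farthest from it, and at day 3 P4ha3 alone is filled above it.

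Unoperated tissues differed in part. Control bursa had 5 of 38 genes higher than control tendon and 11 lower (median -0.10; 51.3% of all features called, 29.3% higher and 22.1% lower), and library totals without TMM gave 8 higher and 6 lower. P4ha3 was lower in control bursa, at 0.879, 0.195, 2.00, 4.90 and 1.44 CPM, against 27.1, 25.8, 14.8, 11.5 and 13.9 CPM in control tendon (-3.23 ± 0.49). P4ha1 (-1.37 ± 0.18), P3h4 (-1.30 ± 0.25) and Sec23a (-0.94 ± 0.15) were also lower in control bursa. Xbp1 was higher, with 62.5, 89.5, 179, 168 and 202 CPM in control bursa, against 71.9, 80.6, 67.6, 67.5 and 85.6 CPM in control tendon (0.91 ± 0.18, adjusted p = 3.3e-05). Cell markers differed between these tissues as well. All 7 adipocyte markers tested were higher in control bursa (median 6.04). Mean muscle marker levels were 7.54 in control bursa and 12.2 in control tendon. The part of these cells in the differences was not tested.

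Injured tendon with the bursa removed was set against injured tendon with it intact. At day 3, 0 of 38 genes passed in edgeR, and 0% of features did, although 36 of 38 fold changes were below 0 (median -0.19 against 0 over all features). At an unadjusted p under 0.05 there were 11 of the genes and 7.85% of all features, and the lowest adjusted p of these genes was 0.62. DESeq2 on all tendon libraries also called 0 of these genes and 0.0496% of features. P4ha2 had the largest difference, with 45.0, 74.7 and 92.7 CPM with the bursa removed and 87.1, 103 and 108 CPM with it intact, which overlapped (-0.49 ± 0.14). P4ha1 had 100, 195 and 217 CPM with the bursa removed and 200, 227 and 319 CPM with it intact (-0.45 ± 0.16). The authors' deposited table lists P4ha1 (-0.47 ± 0.11, adjusted p = 0.0065) and P4ha2 (-0.51 ± 0.13, adjusted p = 0.012) as lower, the only 2 of these genes it calls, with 1.03% of its features called. DESeq2 on those groups alone with the replicate number as a block, an analysis added after seeing the data, called the same 2 genes lower, with 0.974% of features. The edgeR and DESeq2 fits on all tendon libraries above used no such block. A blocked edgeR fit of the same groups is given at the end. Libraries of equal number were lower with the bursa removed in 6 of 6 pairs for both genes, and likewise for P4ha3, P3h4, Fkbp9, Sec23a, Sec24d and Hyou1, which were not called.

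Part of this shift rests on 1 library. Day 3 tendon 1 with the bursa removed was the lowest of its group in many members, such as Serpinh1 (1480 CPM, against 2030 to 2860 in the others) and P4ha3 (44.9 CPM, against 86.5 to 98.1), and it had the highest muscle marker level of its group, 11.07 against 7.82 to 9.34. Without it the median difference was -0.11. With the muscle level as a covariate it was -0.12. At day 14, 0 of 38 genes passed in edgeR and 0% of features, DESeq2 on all tendon libraries called 0 of the genes and 0.00423% of features, 0 of the genes and 1.34% of features had an unadjusted p under 0.05, and the median was 0. The authors' deposited table and the blocked DESeq2 fit also called 0 of these genes at day 14, with 0.0108% and 0.0497% of their features called. The change from day 3 to day 14 did not differ detectably by removal in any of the genes (0 of 38 in edgeR and in DESeq2, 1 at an unadjusted p under 0.05; 0% of features called).

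**Figure D4:**
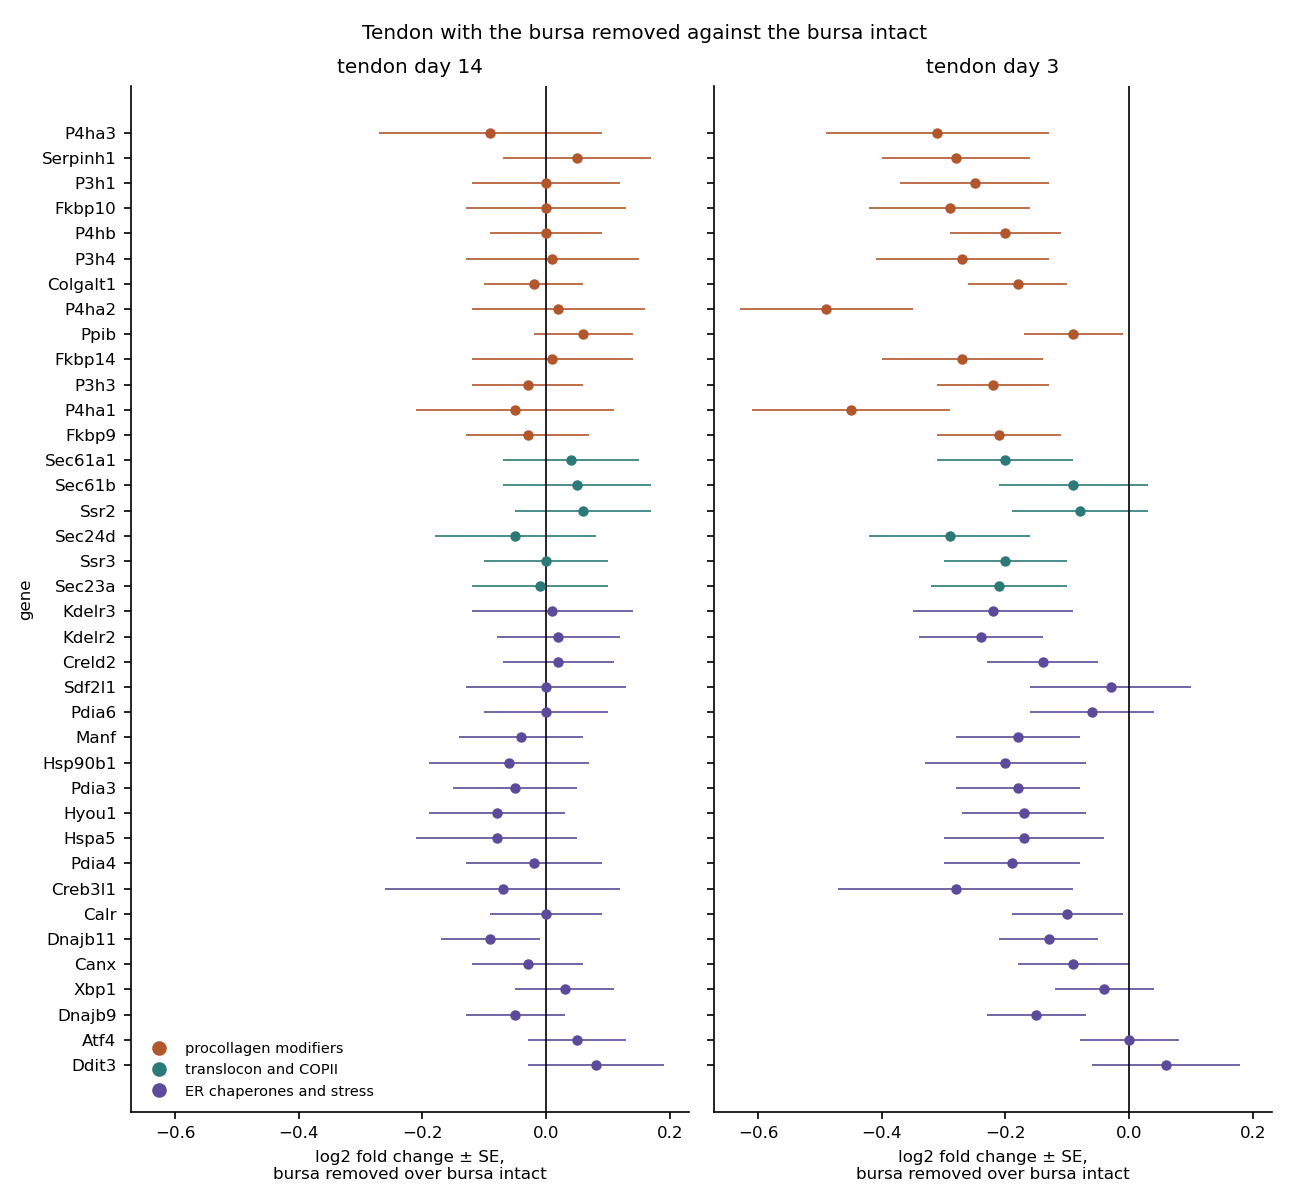
Log2 fold change (points) and SE (bars) of each gene in tendon with the bursa removed over tendon with the bursa intact, at day 14 (left) and day 3 (right). At day 3 all points but those of Atf4 and Ddit3 lie left of 0, and at day 14 they scatter around it; none passed the test.

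The muscle content of the tendon libraries touches every comparison with control tendon. The mean muscle marker level was 8.51 in day 3 tendon with the bursa intact and 12.20 in control tendon. With that level as a covariate, 22 of 38 genes were higher and 2 lower at day 3 with the bursa intact, and the median log2 fold change was 0.56. Procollagen modifiers kept 10 of 13 higher (median 0.90), translocon and COPII genes 3 of 6 (median 0.70) and ER chaperone and stress genes 9 of 19, with 2 lower (median 0.51). Serpinh1 (1.72), P4ha3 (1.71), P3h1 (1.60), Sec61b (1.33), Sec61a1 (1.32), Kdelr3 (1.20) and Creld2 (1.10) still passed, and so did the lower Ddit3 (-0.91, adjusted p = 0.00096) and Atf4 (-0.82, adjusted p = 0.00015). Hspa5 (0.51, adjusted p = 0.11), Hsp90b1 (0.42), Creb3l1 (0.14) and Sec24d (0.37) did not. P4ha1 went to -0.40 (adjusted p = 0.27) with the bursa intact, and with it removed it was lower, at -0.75 (adjusted p = 0.015). In the other injured groups the covariate gave 20 higher and 3 lower at day 3 with the bursa removed (median 0.45), 27 and 2 at day 14 with it removed (median 0.64), and 24 and 2 at day 14 with it intact (median 0.60). Of the ER chaperone and stress genes, 8 were then higher and 2 lower at day 14 with the bursa intact, against 17 and 2 without the covariate. Injured and control tendons do not overlap in this level, so the covariate and the injury cannot be told apart by such a fit. The shares of all features called with the covariate are not given here, so these counts do not show a change particular to these genes.

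**Figure D5:**
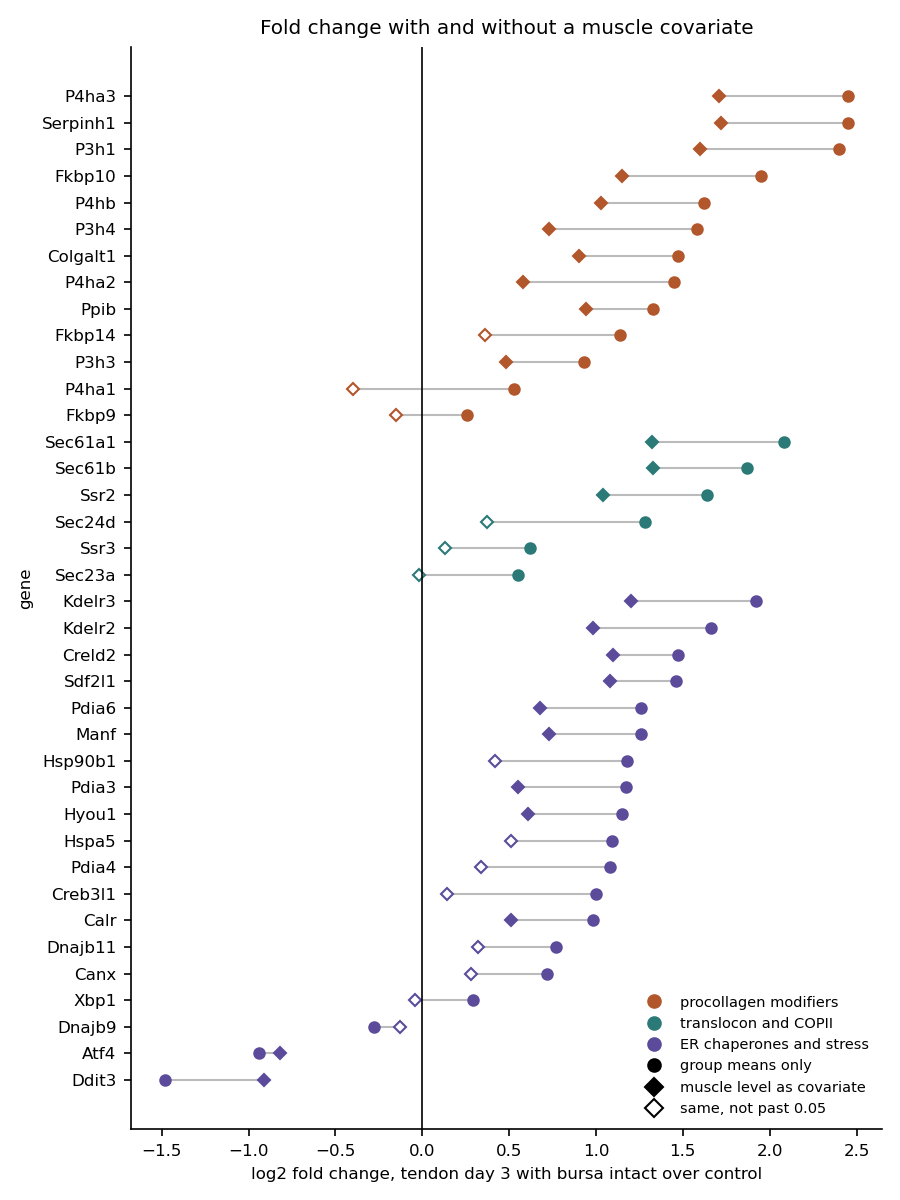
Log2 fold change of each gene in day 3 tendon with the bursa intact over control tendon, from group means only (circles) and with the muscle marker level as a covariate (diamonds, open where the adjusted p was 0.05 or more). Diamonds lie nearer 0 for all genes, and those of Serpinh1, P4ha3, P3h1 and the Sec61 genes stay above 1.

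Further genes of the same pathways moved in both directions. In day 3 tendon with the bursa intact, where 31.2% of all features were higher and 34.5% lower, 6 of 9 other procollagen enzymes were higher and 3 lower (median 1.10). The lysyl hydroxylases Plod1 (1.02 ± 0.09), Plod2 (1.77 ± 0.23) and Plod3 (1.73 ± 0.13) rose, as did the procollagen C-proteinase Bmp1 (1.57 ± 0.11), while P3h2, a prolyl 3-hydroxylase, fell by 3.02 (SE 0.17) and Colgalt2 fell by 2.53 (SE 0.18). Of 19 other COPII and cargo genes, 13 were higher and 3 lower (median 0.74), and of 21 other translocon and glycosylation genes, 16 were higher and 2 lower (median 0.72). Sar1b, a COPII GTPase, was among the lower genes (-1.93 ± 0.25), and the cargo receptor Surf4 (1.53 ± 0.11) and the folding sensor Uggt1 (1.46 ± 0.08) among the higher. Of 27 other ER stress genes, 16 were higher and 5 lower (median 0.32). Targets downstream of ATF4 split, with Chac1 (-1.83 ± 0.35) and Ppp1r15a (-0.85 ± 0.14) lower and Asns (1.09 ± 0.16) higher. Txndc5, a disulfide isomerase, rose by 1.43 ± 0.11, and Ero1a, the oxidase that recharges disulfide isomerases, by 1.29 ± 0.17. In day 3 bursa, where 22.1% of all features were higher and 24.3% lower, the corresponding counts were 6 higher and 2 lower of 9 other procollagen enzymes, 12 and 3 of 19 COPII and cargo genes, 13 and 0 of 21 translocon and glycosylation genes, and 8 and 6 of 27 ER stress genes. Asns was lower there (-0.82 ± 0.25), as was Trib3 (-1.21 ± 0.36), a further ATF4 target.

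Markers of other cells moved in the same comparisons. In day 3 tendon with the bursa intact, 8 of 9 fibroblast markers, 8 of 8 macrophage markers and 4 of 4 markers of dividing cells were higher than in control tendon, and 6 of 7 adipocyte and 6 of 8 tendon cell markers were lower. In day 3 bursa, 8 of 9 fibroblast, 7 of 8 macrophage and 4 of 4 dividing cell markers were higher, and 7 of 7 adipocyte and 3 of 8 tendon cell markers lower. Some cargo collagens are also on the fibroblast list, and 7 of 7 cargo collagens tested were higher in both comparisons (medians of 2.32 in tendon and 2.65 in bursa). The part of these cell types in the changes above was not tested.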

How the data were processed

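Whole-tissue RNA was poly-A selected and sequenced, per the labels' protocols. Per the submitters' processing notes, reads were demultiplexed with bcl2fastq 2.19 and quantified with kallisto 0.44.0, and DESeq2 was used for the comparisons. Genome build and annotation: not given in the sources used here. Deposited by the authors were estimated counts per transcript, which were rounded to whole numbers, and gene tables per comparison. In the gene tables, per the file headers, the authors give a mean normalised signal (baseMean), log2 fold changes with SE, a test score (the Wald statistic) and p-values. Their signs were turned where needed to the direction printed here.

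The count table holds transcript identifiers without symbols. Symbols were therefore matched by value, each to the 1, 2 or 3 transcripts whose size-factor scaled counts gave its deposited mean in all 11 gene tables, and matches whose log2 fold change differed by more than 0.1 from the deposited one were dropped. This matched 13076 of 23747 symbols and 15475 of 31715 transcripts, holding 90.1% of counts. The search for 1 transcript within 0.5 normalized counts was repeated on values shifted by 2 sets of factors, which no gene has. It gave 0 and 2 matches for 14762 symbols. Searches for 2 transcripts and for a leading transcript gave 0 matches for 500 shifted values. The search for 1 transcript within 1%, which matched genes such as P4ha3 and Sec61a1, was not repeated on shifted values. Fkbp10 is represented by its leading transcript, 95.4% of its deposited mean. DESeq2 fold changes recomputed from the counts lay within 0.05 of the deposited ones for all 38 genes tested.

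Libraries were grouped by the labels. edgeR 4.0.16 in R 4.3.3 was used with limma 3.58.1 (filterByExpr, TMM, robust quasi-likelihood fits) on 17 bursa, 29 tendon or all 46 libraries, and p-values were adjusted by Benjamini-Hochberg over 16398, 16459 or 17311 features. Calls are adjusted p under 0.05. An SE is the log2 fold change divided by the square root of F. Levels are TMM-scaled CPM over all libraries. The fits were tested on simulated counts. Alternatives were DESeq2 1.42.0, no filter on low counts, library totals without TMM, the replicate number as a block, a muscle covariate, only the groups compared, and leaving out libraries. Motifs were searched with Python 3.11.15, pandas 2.3.3 and numpy 2.4.6, and figures drawn with matplotlib 3.10.9.

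The members and the other gene lists were chosen with earlier results of these data known. All 44 are named. Given with every library are, per role, the 2 genes with the highest and the 1 with the lowest log2 fold change in day 3 tendon with the bursa intact and in day 3 bursa, plus Serpinh1, Hspa5, Ddit3 and Creb3l1. P4ha1, P4ha2, Atf4, Dnajb9 and Xbp1 were given so as well after their values were seen, and other pathway genes are examples from fixed lists. Replicate numbers are shared between groups. Deviations of same-numbered libraries from their group means correlated at 0.14 to 0.39 between day 14 tendons with the bursa removed and intact (6 of 6 pairs over 0.1), at 0.05 to 0.47 between the day 3 tendons (5 of 6), and at 0.13 to 0.23 between day 3 bursa and day 3 tendon with the bursa intact (6 of 6). The design text says that tendons were compared within a rat, and the labels do not tie numbers to rats.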

Additional observations from a re-analysis of the deposited data

Results flagged for a closer look

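Single libraries stood far from the rest of their group in 14 of 128 groups checked (16 genes, Dixon's test on CPM). Chance gives about 1 in 20 for a single check. The 16 genes share the same libraries, so the 128 checks are not independent and the 14 cannot be read as an excess. Of the 14, 4 were day 3 tendon 1 with the bursa removed: P4ha3 at 44.9 CPM (others 86.5 to 98.1), Fkbp9 at 174 (257 to 289), Fkbp10 at 189 (308 to 373) and Sec24d at 77.4 (137 to 165). The same library had the highest muscle marker level of its group. Day 14 bursa 2 was high for P4ha3 at 39.2 CPM (1.43 to 15.1) and for Sec61a1 at 171 (129 to 143), and day 14 bursa 6 for Ssr3 at 164 (134 to 145). Control tendon 5 was high for Sec23a at 106 CPM (70.3 to 78.6) and for Creb3l1 at 85.3 (35.1 to 48.4). Day 14 tendon 4 with the bursa removed was low for Sec61b at 66.1 CPM (79.1 to 80.6) and Kdelr3 at 129 (150 to 161), and day 14 tendon 3 with the bursa intact was low for Ssr3 at 218 (242 to 253). In day 3 tendon with the bursa intact, library 3 was high for Sec61b at 104 CPM (86.8 to 92.6) and library 1 low for Sec23a at 95.9 (123 to 129).

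The response to injury differed between bursa and tendon with the bursa intact in 35 tests of the difference itself (edgeR, adjusted p under 0.05). The differences are of log2 fold changes, bursa minus tendon. Muscle marker levels also changed by unlike amounts in bursa and tendon, and their part was not tested. At day 3, among procollagen modifiers, they were 2.24 for P4ha3, -0.39 for Ppib and -0.69 for Fkbp14. Translocon genes gave -1.08 for Sec61a1, -0.65 for Sec61b and -0.61 for Ssr2. Among ER chaperone and stress genes the values were -0.56 for Canx, -0.50 for Pdia6, -0.40 for Dnajb11, -0.81 for Hyou1, -0.57 for Manf, -0.90 for Xbp1 and -0.58 for Kdelr2.

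At day 14, procollagen modifiers differed by -0.77 for P4hb, -1.32 for P3h1, -0.78 for Ppib, -1.32 for Fkbp14, -1.16 for Serpinh1 and -0.79 for Colgalt1. Translocon genes differed by -1.62 for Sec61a1, -1.34 for Sec61b, -1.03 for Ssr2 and -0.51 for Ssr3. Among ER chaperone and stress genes, the disulfide isomerases gave -0.67 for Pdia3, -0.60 for Pdia4 and -0.55 for Pdia6. Canx was at -0.36, Dnajb9 at -0.29, Dnajb11 at -0.48, Hyou1 at -0.56, Manf at -1.05, Creld2 at -0.44 and Kdelr2 at -1.0. Atf4 at 0.28 and Ddit3 at 0.73 were the genes with a higher value in bursa.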

How the results depend on the processing

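Of 304 recomputed counts of called genes, 286 lay within 1.5 times the reported count and 18 did not. Shares of all features called are given only for the main fits, and for DESeq2 and the deposited tables of removed against intact tendon. A changed count under another setting is therefore not shown to be particular to these genes. For day 14 bursa against control, the 19 calls became 1 with library totals without TMM, and 10 both without control bursae 1 and 2 and with only the groups compared, and leaving out single libraries gave 11 to 20, with 11 without control bursa 1 or 2. For day 14 against day 3 bursa, the 26 calls became 17 with no filter on low counts and 3 with library totals without TMM, and 15 to 25 without single libraries. With the muscle covariate, the calls were 24 in day 3 tendon with the bursa intact and 23 with it removed. The difference of responses at day 3 gave 20 calls without control bursae 1 and 2, and 12 to 17 without single libraries. Without single libraries the remaining counts were 33 to 35 (day 3 bursa), 37 to 38 (day 3 intact, day 14 removed and day 14 intact tendon), 36 (day 3 removed), 17 to 20 and 15 to 19 (day 14 against day 3 tendon, intact and removed), 14 to 20 (control tissues) and 18 to 29 (responses at day 14), and 0 for removed against intact and for the difference by removal. Signs were compared across settings for 16 genes. With the muscle covariate, Fkbp9 (-0.15) and Sec23a (-0.02) in day 3 tendon with the bursa intact changed sign. With the bursa removed, Sec23a (-0.16), Ssr3 (-0.01) and Creb3l1 (-0.04) did. With library totals without TMM so did Ssr3 between control tissues (0.04). Outside these 16 genes, P4ha1 with the muscle covariate and Dnajb9 with library totals also changed sign in day 3 tendon, as given above. Beyond the smaller set of libraries where some were left out, the cause was not tested. P4ha3 was at under 5 CPM in every control bursa, where depth limits its precision.

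With the replicate number as a block, the counts of called genes were 35, 17 and 18 in the 3 bursa comparisons (day 3 and day 14 against control, and day 14 against day 3), 38, 36, 37 and 37 in day 3 intact, day 3 removed, day 14 intact and day 14 removed tendon against control, 19 and 17 for day 14 against day 3 tendon with the bursa intact and removed, 17 between control tissues, and 13 and 23 for the responses at day 3 and day 14. The block gave 0 calls for removed against intact tendon at both days and for the difference by removal. Chosen after seeing the data, a fit of only the groups compared with the replicate block gave 0 calls at day 3 in edgeR and 2 in DESeq2, and 0 at day 14 in both, and the authors' deposited table also gives 2 at day 3.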
